A study of Mus musculus with 12 samples.

Results

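The 10 genes examined here encode enzymes that activate, insert, elongate or desaturate the fatty acids of membrane phospholipids, or that build ether lipids: Acsl4, Acsl3, Lpcat3, Mboat1, Mboat2, Elovl5, Fads1, Fads2, Scd1 and Agps. They were chosen by symbol for these functions, with earlier results of these data known, from the 24421 gene symbols of the count table. All 10 passed the filter on low counts, with mean counts between 1081 for Mboat2 and 11126 for Scd1, and were tested among 13281 genes.

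The material was KP, a mouse lung adenocarcinoma cell line which carries floxed alleles of the tumour suppressor p53 (Trp53flox/flox). The 4 groups of 3 libraries were sgBACH1 cells, a CRISPR/Cas9 knockout of BACH1, with siRNA against FEM1B (siFEM1B); sgBACH1 cells with control siRNA (siCTRL); control-guide sgCTRL cells with siFEM1B; and sgCTRL cells with siCTRL. Transfection lasted 48 hours. BACH1 represses transcription and binds heme, FEM1B selects substrates for CUL2 ubiquitin ligases, and the study asked how loss of either alters genes of ferroptosis. The labels name a single knockout and a single control line, so what the guide did and what differs between the lines for other reasons cannot be told apart.

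Ferroptosis is an iron-dependent death in which polyunsaturated acyl chains of membrane phospholipids are oxidised. Acyl-CoA synthetases first couple a fatty acid to coenzyme A. ACSL4 prefers polyunsaturated chains and promotes ferroptosis, whereas ACSL3 activates monounsaturated chains, which resist oxidation. The acyltransferases then load the chains: LPCAT3 inserts polyunsaturated chains, and MBOAT1 and MBOAT2 insert monounsaturated chains into phosphatidylethanolamine and are described as suppressors of ferroptosis. FADS2, ELOVL5 and FADS1 act in turn on dietary precursors to make long polyunsaturated chains such as arachidonic acid, and SCD1 makes monounsaturated chains. AGPS forms the ether bond of ether phospholipids in peroxisomes.

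The libraries held 16539168 to 22196999 counts each, and 1 count equalled 0.0446 to 0.0604 CPM, the count scaled to a common library total with TMM factors. Fem1b averaged 49.0 CPM in knockout cells with siFEM1B and 139 CPM in knockout cells with siCTRL, and 51.7 CPM in control cells with siFEM1B against 163 CPM in control cells with siCTRL. Bach1 was at 29.5 CPM in knockout cells and 31.4 CPM in control cells under siCTRL (log2 fold change -0.09 ± 0.08 by edgeR's quasi-likelihood test, where ± is the standard error; Benjamini-Hochberg adjusted p = 0.344). Since Cas9 can disrupt a protein without lowering its mRNA, the Bach1 level does not check the knockout. Bach1 rose with siFEM1B in both lines. The rise was 0.44 ± 0.08 in knockout cells (adjusted p = 0.000133) and 0.40 ± 0.08 in control cells (adjusted p = 0.000242). Between lines Fem1b was called lower in knockout cells under siCTRL (-0.22 ± 0.08, adjusted p = 0.0241). Under siFEM1B it was not (-0.08 ± 0.09, adjusted p = 0.484). In bulk RNA, fewer cells of a kind and less RNA per cell cannot be told apart. The 7 epithelial markers summed to 7080 to 9380 CPM, with 2 called higher and 3 lower between lines under each siRNA. Keratins 8, 18 and 19 had group means of 2030 to 2820 CPM, and Krt7 was at 585 and 446 CPM in knockout cells with siFEM1B and siCTRL, against 1440 and 1730 CPM in control cells with siFEM1B and siCTRL. Cdh1 went the other way, at 615 and 645 CPM in knockout cells with siFEM1B and siCTRL, against 400 and 322 CPM in control cells. Epcam was at 1.53 CPM or below. The lung lineage genes were absent: none of 7 passed the filter, and Nkx2-1 and Sftpa1 had 0 counts in all 12 libraries. Markers of other cell types were low. The 5 endothelial markers summed to at most 2.14 CPM. The 8 leukocyte markers, nearly all Cd68 with Adgre1 and Cd3e at 0, summed to 8.57 to 11.2 CPM in knockout cells with siFEM1B, 5.49 to 6.1 CPM in knockout cells with siCTRL, 21.5 to 30.3 CPM in control cells with siFEM1B and 7.64 to 9.7 CPM in control cells with siCTRL. Cd68 was called higher with siFEM1B in both lines, with a log2 fold change of 0.76 in knockout and 1.58 in control cells and a called interaction of -0.82. The 6 adipocyte markers, of interest for lipid genes, summed to 20.9 to 30.7 CPM in knockout cells with siFEM1B, 25.1 to 27.8 CPM in knockout cells with siCTRL, 35.5 to 44.0 CPM in control cells with siFEM1B and 48.3 to 50.5 CPM in control cells with siCTRL. Plin4 carried these sums, and Lep was at 0 in all 12 libraries. The 7 fibroblast markers, mostly Col1a1, summed to 9.55 to 11.2, 8.58 to 10.7, 18.4 to 21.6 and 23.3 to 25.2 CPM in the same groups. The adipocyte and fibroblast sums were lower in knockout than in control cells, and the part of these markers in the differences reported for the lipid genes was not tested.

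The promoters of 4 genes are shown, picked for the clearest changes among the 10. Acsl3 and Elovl5 had the largest rises of the 10 in knockout cells under siCTRL. With siFEM1B, Lpcat3 had the largest rise of the 10 in knockout cells and Mboat1 in control cells. Each line is the RefSeq window on GRCm38.p6 from 250 bases before to 50 after a start site, on the plus strand, with capitals at CCAAT boxes (CCAAT, or ATTGG for the other strand) and at the E-box CACGTG. The windows are chr1:78657575-78657874 for Acsl3, chr9:77917115-77917414 for Elovl5, chr6:124662854-124663153 for Lpcat3 and chr13:30136240-30136539 for Mboat1.
Acsl3: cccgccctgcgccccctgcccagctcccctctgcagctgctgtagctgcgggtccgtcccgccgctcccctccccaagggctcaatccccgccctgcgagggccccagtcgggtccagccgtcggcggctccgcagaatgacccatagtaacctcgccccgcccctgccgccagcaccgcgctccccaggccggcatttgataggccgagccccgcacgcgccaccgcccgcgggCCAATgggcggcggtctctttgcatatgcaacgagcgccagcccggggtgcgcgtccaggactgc
Elovl5: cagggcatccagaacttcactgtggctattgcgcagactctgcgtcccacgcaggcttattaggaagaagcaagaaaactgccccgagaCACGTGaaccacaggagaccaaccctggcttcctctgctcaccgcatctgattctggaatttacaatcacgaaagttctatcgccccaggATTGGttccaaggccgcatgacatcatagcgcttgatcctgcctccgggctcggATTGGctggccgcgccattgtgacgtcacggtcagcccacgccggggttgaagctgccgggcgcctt
Lpcat3: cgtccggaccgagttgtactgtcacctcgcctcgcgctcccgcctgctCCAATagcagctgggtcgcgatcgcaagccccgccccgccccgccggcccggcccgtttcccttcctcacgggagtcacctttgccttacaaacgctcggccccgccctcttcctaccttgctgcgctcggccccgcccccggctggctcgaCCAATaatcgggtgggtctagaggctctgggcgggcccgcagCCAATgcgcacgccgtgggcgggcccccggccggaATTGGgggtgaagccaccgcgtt
Mboat1: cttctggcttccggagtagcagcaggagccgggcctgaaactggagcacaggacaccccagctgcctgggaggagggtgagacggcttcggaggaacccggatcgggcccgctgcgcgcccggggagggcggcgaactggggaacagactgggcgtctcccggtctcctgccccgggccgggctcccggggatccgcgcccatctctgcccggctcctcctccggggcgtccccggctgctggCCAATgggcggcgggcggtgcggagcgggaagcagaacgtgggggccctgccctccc
RefSeq windows were matched for 8 of the 10 genes, all but Fads1 and Scd1. The Acsl3 window held 1 CCAAT box, beginning at position -15 from the start site, and the Mboat1 window 1 at -7. The Lpcat3 window held 4, at -202, -50 and -8 and, on the other strand, at 27. The Elovl5 window held 2 on the other strand, at -71 and -17, and an E-box at -161 that overlapped neither. CCAAT occurred in 6 of the 8 windows, against 37.4% of all 32851 windows of this length, and CACGTG in 1 of 8, against 7.15%. On either strand, the sterol regulatory element core TCACNCCAC (1.24% of all windows), the antioxidant response element core TGACNNNGC (12.4%) and its BACH1 and MAF form TGACTCAGC (0.454%) matched in 0 of the 8. A match is a description of letters only, and these windows cover 300 bases.

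Levels of different genes were compared per kilobase of exon (RPKM). Scd1 was the most abundant of the 10 in every group, with library values of 119 to 137 RPKM in knockout cells with siFEM1B, 116 to 120 RPKM in knockout cells with siCTRL, 92.1 to 117 RPKM in control cells with siFEM1B and 98.2 to 105 RPKM in control cells with siCTRL. Fads1 came next and Mboat2 last in every group, Mboat2 at 4.87 to 6.71 RPKM over the 12 libraries. In control cells with siCTRL the order was Scd1, Fads1, Acsl4, Lpcat3, Elovl5, Fads2, Mboat1, Acsl3, Agps and Mboat2, and the library ranges of Lpcat3 and Elovl5 and of Mboat1 and Acsl3 overlapped. In knockout cells with siCTRL Elovl5 took the third place at 69.7 to 71.7 RPKM, above Lpcat3 at 44.4 to 49.6 RPKM, and Acsl3 at 30.3 to 32.8 RPKM stood above Mboat1 at 19.5 to 20.5 RPKM. In knockout cells with siFEM1B the ranges of Acsl3 and Fads2 overlapped, and in control cells with siFEM1B those of Fads1 and Acsl4, of Acsl4 and Lpcat3 and of Fads2 and Acsl3 did. All 10 genes were thus expressed in all 4 groups, and the groups differed modestly: the ratio of the highest to the lowest group mean in CPM ran between 1.20 for Agps and 1.615 for Elovl5.

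**Figure D1:**
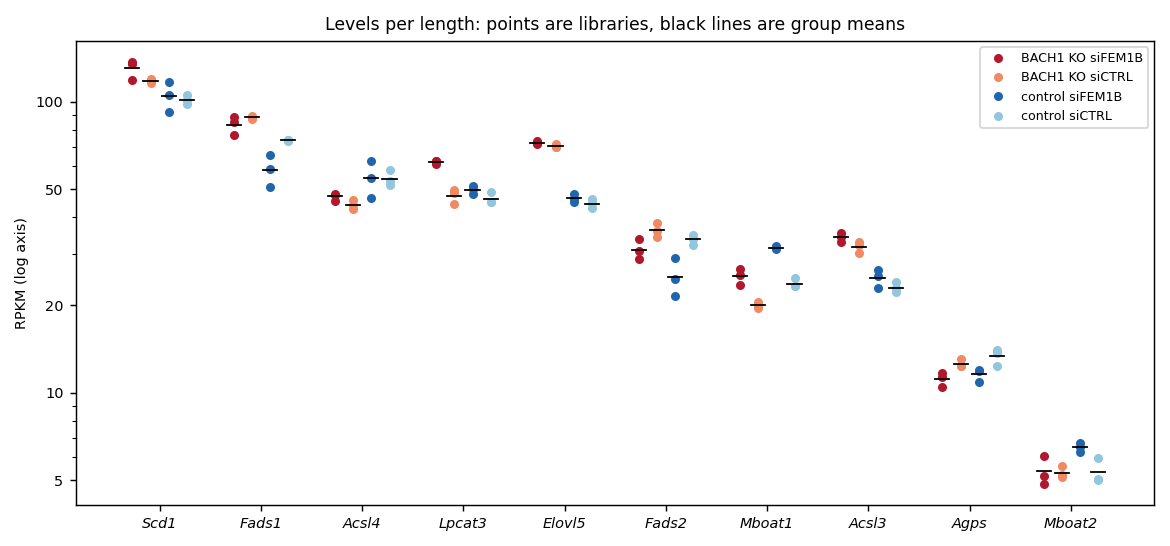
Level of each gene per length in RPKM (log axis) in each of the 12 libraries, with group means as black lines. Scd1 lies at 92.1 RPKM or above in every library and Mboat2 at 6.71 RPKM or below.

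Knockout cells were compared with control cells first under control siRNA. Elovl5 and Acsl3 rose most among the 10, by 0.66 and 0.47 on the log2 scale, with smaller rises of Fads1 and Scd1, while Acsl4 and Mboat1 fell. In all, 4 of the 10 genes were called higher and 2 lower, where calling means a Benjamini-Hochberg adjusted p under 0.05 in edgeR's quasi-likelihood test over all genes. Of all genes tested, 24.2% were called higher and 26.3% lower, so calls were frequent in this comparison. The median log2 fold change was 0.07 over the 10 genes and -0.02 over all genes. The rises of Fads1 and Scd1 were not kept when the shift of each whole chromosome was removed. In that setting 3 of the 10 genes were called higher and 4 lower, against 2851 and 2941 of all 13281 genes. These were partly other genes: Mboat2 was then called higher (0.23), and Fads2 (-0.33) and Scd1 (-0.22) were called lower.

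Under siFEM1B, knockout cells differed from control cells in 9 of the 10 genes. The 6 called higher were Elovl5, Fads1, Acsl3, Lpcat3, Fads2 and Scd1, and the 3 called lower were Mboat1, Mboat2 and Acsl4; Agps was not called (log2 fold change -0.06 ± 0.06, adjusted p = 0.476, and 0.05 with chromosome medians removed). Of all genes, 28.2% were called higher and 26.4% lower. The median log2 fold change was 0.31 over the 10 genes and 0.01 over all genes, chromosome shifts included. With these shifts removed, 3 of the 10 genes were called higher and 2 lower, against 3258 and 3383 of all 13281 genes. Fads1, Fads2, Scd1 and Mboat2 were then not called, at 0.07, -0.13, -0.13 and -0.02.

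FEM1B siRNA was then set against control siRNA within each line. In control cells Mboat1 and Mboat2 rose and Fads1, Fads2 and Agps fell, 2 higher and 3 lower of 10, against 22.1% of all genes higher and 22.9% lower. In knockout cells Lpcat3 and Mboat1 rose and Fads2 and Agps fell, 2 higher and 2 lower of 10, against 21.9% of all genes higher and 19.8% lower. The median log2 fold change over the 10 genes was 0.06 in each line, and 0.00 in control and 0.02 in knockout cells over all genes. The counts of genes called here lay near those of all genes. Comparisons that have a group in common share its 3 libraries, so their fold changes are not independent and are given side by side only.

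**Figure D2:**
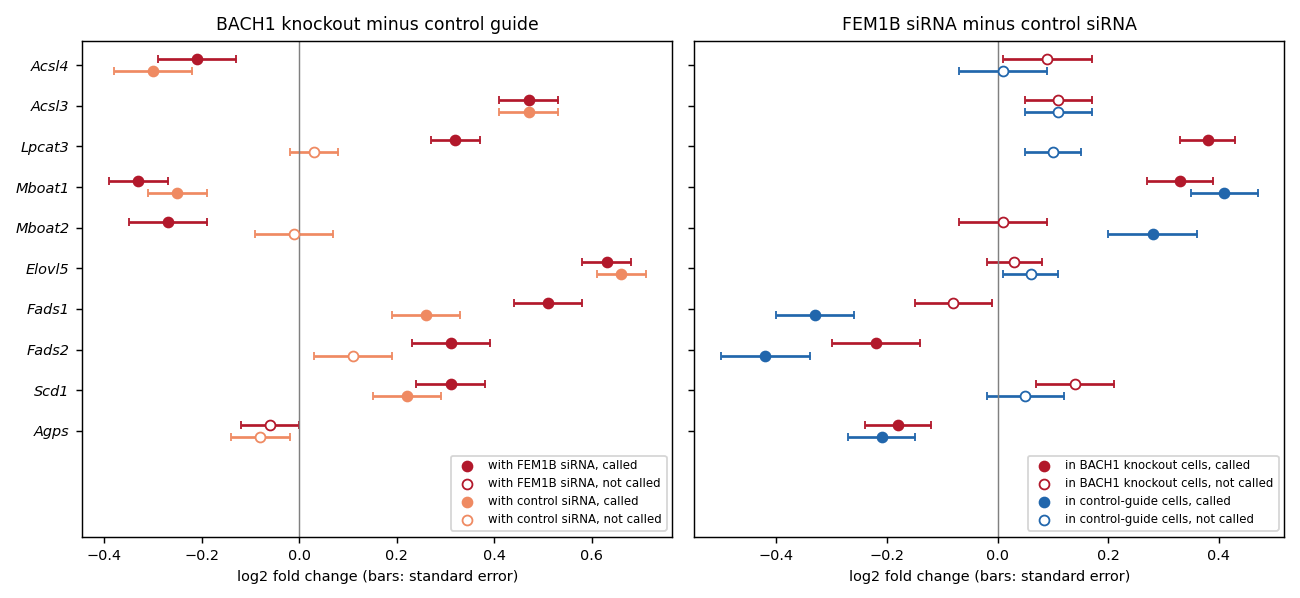
Log2 fold change of each gene with its standard error, BACH1 knockout minus control guide on the left and FEM1B siRNA minus control siRNA on the right. Filled points were called; Elovl5 lies farthest right on the left-hand side, followed by Acsl3 under siCTRL and by Fads1 under siFEM1B, while Lpcat3, Mboat1 and Mboat2 carry the called rises on the right-hand side. With chromosome shifts removed, the left-hand points of Fads2 and Scd1 change sign under both siRNAs, as do those of Agps, which was not called, under both and of Fads1 and Mboat2 under siCTRL.

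Of the synthetases, Acsl3 was higher and Acsl4 lower in knockout cells. Acsl3 (chr1:78657825-78707743) was at 154.5, 144 and 149 CPM in knockout cells with siFEM1B, 143, 132 and 140 CPM in knockout cells with siCTRL, 109.6, 115 and 99.8 CPM in control cells with siFEM1B and 104, 99.4 and 96.5 CPM in control cells with siCTRL. Every knockout library exceeded every control library. The rise was 0.47 ± 0.06 under siCTRL (adjusted p = 1.75e-06) and 0.47 ± 0.06 under siFEM1B (adjusted p = 1.64e-06), a 38.2% higher level under siCTRL. Acsl3 was not called with siFEM1B in control cells (0.11 ± 0.06, adjusted p = 0.14) or knockout cells (0.11 ± 0.06, adjusted p = 0.142). Without control siFEM1B replicate 3 it was called in control cells (0.18, adjusted p = 0.0189). Of its exon bases, 244 (5.6%) are shared with Utp14b on the same strand, which was at 7.43 to 11.4 CPM in the 12 libraries with an adjusted p of 0.0793 or above in all 5 comparisons.

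Acsl4 (chrX:142317993-142390802) was at 247, 259.6 and 259 CPM in knockout cells with siFEM1B, 248, 238 and 231 CPM in knockout cells with siCTRL, 339, 296 and 251 CPM in control cells with siFEM1B and 279, 315 and 288 CPM in control cells with siCTRL. Under siCTRL the 3 knockout libraries lay below the 3 control libraries, whereas under siFEM1B control replicate 3 overlapped the knockout range. Acsl4 fell by 0.30 ± 0.08 on the log2 scale under siCTRL (adjusted p = 0.0029), and this call held under all 19 alternatives run. Under siFEM1B the change was -0.21 ± 0.08 (adjusted p = 0.0248). This call was lost without control siFEM1B replicate 1 (-0.10, adjusted p = 0.226) or 2 (adjusted p = 0.0552), without knockout siFEM1B replicate 1 (adjusted p = 0.086) and in a fit to the 6 libraries compared (adjusted p = 0.0558); without control siFEM1B replicate 3 it was -0.33 (adjusted p = 0.000169). Neither line showed a call with siFEM1B, at 0.09 ± 0.08 in knockout cells (adjusted p = 0.343) and 0.01 ± 0.08 in control cells (adjusted p = 0.952).

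**Figure D3:**
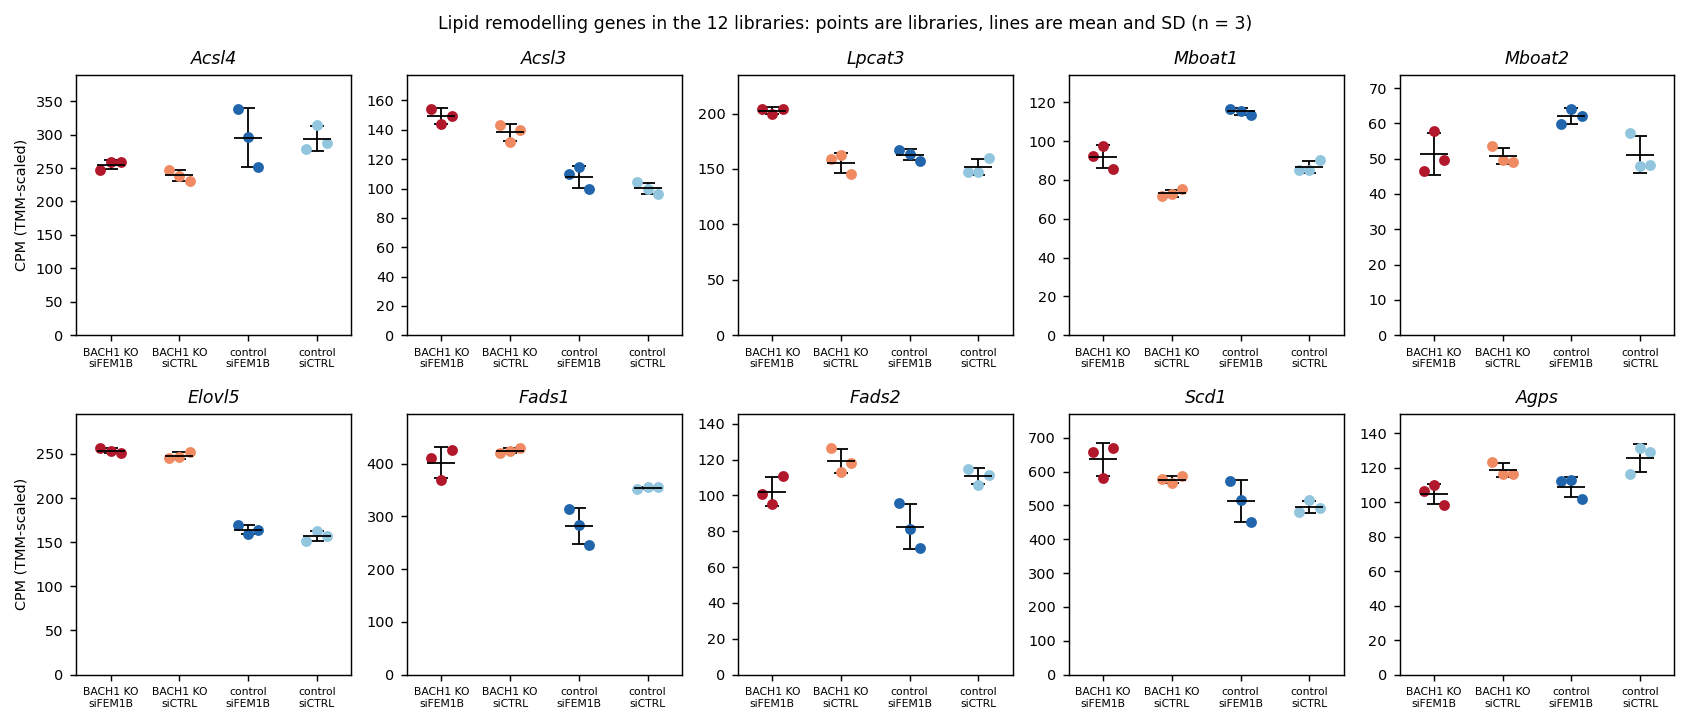
Level of each gene in CPM in the 12 libraries, by group, with group mean and SD (n = 3). Elovl5 and Acsl3 separate knockout from control libraries under both siRNAs, Lpcat3 is highest in the 3 knockout libraries with siFEM1B, and Mboat1 is higher with siFEM1B than with siCTRL in both lines.

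Among the acyltransferases, Lpcat3 was highest where both BACH1 and FEM1B were targeted. Lpcat3 (chr6:124663094-124704716) was at 204, 199 and 204 CPM in knockout cells with siFEM1B, 159, 162 and 145 CPM in knockout cells with siCTRL, 167, 163.5 and 157 CPM in control cells with siFEM1B and 148, 147.5 and 160.1 CPM in control cells with siCTRL. The 3 libraries with both losses lay above the other 9, which overlapped one another. With siFEM1B Lpcat3 rose by 0.38 ± 0.05 in knockout cells (adjusted p = 1.29e-05), and in control cells its change was 0.10 ± 0.05 (adjusted p = 0.143). Between lines it was higher in knockout cells by 0.32 ± 0.05 under siFEM1B (adjusted p = 5.8e-05), and under siCTRL the difference was 0.03 ± 0.05 (adjusted p = 0.633).

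The difference between the siRNA effects in the lines, the interaction, was tested directly. Lpcat3 was the 1 gene of 10 called, 0.28 ± 0.08 on the log2 scale higher in knockout cells (adjusted p = 0.0334), where 3.48% of all genes were called higher and 2.6% lower. The call was lost with RLE scaling (adjusted p = 0.0504), with chromosome medians removed (adjusted p = 0.0528), with the replicate number as a block (adjusted p = 0.0601) and without any one of 7 libraries: control siCTRL replicate 3 (adjusted p = 0.105), control siFEM1B replicates 2 (0.0667) and 3 (0.073), knockout siCTRL replicates 1 (0.0706) and 3 (0.117), and knockout siFEM1B replicates 1 (0.0918) and 3 (0.0922). Its estimate stayed between 0.23 and 0.32 in all 18 alternatives. Lpcat3 shares 334 exon bases (10.2%) with Emg1 on the opposite strand, and whether counting used strand is not given in the sources used here. Emg1 with siFEM1B changed by 0.00 ± 0.05 in knockout cells (adjusted p = 0.961) and -0.21 ± 0.05 in control cells (adjusted p = 0.00299), an interaction of 0.22 ± 0.08 (adjusted p = 0.0877) in the direction of that of Lpcat3. Between lines Emg1 was higher in knockout cells, by 0.48 ± 0.05 under siFEM1B (adjusted p = 2.73e-07) and 0.27 ± 0.05 under siCTRL (adjusted p = 0.000306); its part in the Lpcat3 results was not tested.

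Mboat1 was higher with siFEM1B in both lines and lower in knockout than in control cells under both siRNAs. Mboat1 (chr13:30136451-30246694) was at 92.5, 97.4 and 85.7 CPM in knockout cells with siFEM1B, 71.5, 72.8 and 75.1 CPM in knockout cells with siCTRL, 117, 115.5 and 114 CPM in control cells with siFEM1B and 85.0, 84.9 and 90.3 CPM in control cells with siCTRL. The ranges of the groups did not overlap in any of the 4 comparisons. With siFEM1B it rose by 0.33 ± 0.06 in knockout cells (adjusted p = 0.000131) and by 0.41 ± 0.06 in control cells (adjusted p = 8.18e-06), and the interaction was -0.08 ± 0.08 (adjusted p = 0.586). In knockout cells it fell by 0.33 ± 0.06 under siFEM1B (adjusted p = 6.65e-05) and by 0.25 ± 0.06 under siCTRL (adjusted p = 0.00137). All 4 calls held under every one of the 19 alternatives.

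Mboat2 (chr12:24831435-24964400), the least abundant of the 10, was at 46.55, 57.8 and 49.55 CPM in knockout cells with siFEM1B, 53.5, 49.7 and 49.2 CPM in knockout cells with siCTRL, 59.9, 64.2 and 62.1 CPM in control cells with siFEM1B and 57.2, 48.0 and 48.2 CPM in control cells with siCTRL. Control cells with siFEM1B were highest, and the other groups overlapped. It rose with siFEM1B in control cells (0.28 ± 0.08, adjusted p = 0.0083), with 0.01 ± 0.08 in knockout cells (adjusted p = 0.903). The interaction of -0.26 ± 0.12 was not called (adjusted p = 0.175), but was without knockout siFEM1B replicate 2 (-0.36, adjusted p = 0.0297). Between lines it was lower in knockout cells under siFEM1B (-0.27 ± 0.08, adjusted p = 0.00749), a call lost without knockout siFEM1B replicate 1 (-0.21, adjusted p = 0.0579) and, at -0.02, with chromosome medians removed. Under siCTRL its difference was -0.01 ± 0.08 (adjusted p = 0.922) and turned to 0.23 (adjusted p = 0.0313) with chromosome medians removed.

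Of the enzymes that elongate and desaturate, Elovl5 showed the largest difference between lines. Elovl5 (chr9:77917365-77984519) was at 257, 254 and 251 CPM in knockout cells with siFEM1B, 245, 246 and 252 CPM in knockout cells with siCTRL, 169, 159 and 164 CPM in control cells with siFEM1B and 151, 163 and 157 CPM in control cells with siCTRL. The lowest knockout library lay well above the highest control library, and within a line the siRNA groups overlapped. Elovl5 rose by 0.63 ± 0.05 under siFEM1B (adjusted p = 1.51e-09) and by 0.66 ± 0.05 under siCTRL (adjusted p = 6.62e-10). With siFEM1B it was not called in knockout cells (0.03 ± 0.05, adjusted p = 0.607) or in control cells (0.06 ± 0.05, adjusted p = 0.318).

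The desaturases differed between lines and with siFEM1B. Fads1 (chr19:10182877-10196874) was at 410.2, 368 and 426 CPM in knockout cells with siFEM1B, 419.7, 424 and 429.8 CPM in knockout cells with siCTRL, 315, 283 and 246 CPM in control cells with siFEM1B and 352, 355 and 355 CPM in control cells with siCTRL. All knockout libraries exceeded all control libraries, and in control cells the libraries with siFEM1B lay below those with siCTRL. With siFEM1B its change was -0.08 ± 0.07 in knockout cells (adjusted p = 0.364), whereas in control cells Fads1 fell by 0.33 ± 0.07 (adjusted p = 0.000587). The interaction, 0.25 ± 0.10, was not called (adjusted p = 0.125), but was without low-count filtering (adjusted p = 0.0298), without control siFEM1B replicate 1 (0.34, adjusted p = 0.0224) and without knockout siFEM1B replicate 2 (0.31, adjusted p = 0.0321). Between lines Fads1 was higher in knockout cells by 0.51 ± 0.07 under siFEM1B (adjusted p = 3.45e-06) and 0.26 ± 0.07 under siCTRL (adjusted p = 0.00341), and these became 0.07 (adjusted p = 0.419) and -0.17 (adjusted p = 0.0613) with chromosome medians removed.

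Fads2, the neighbour of Fads1 (chr19:10062765-10101503), was at 101, 95.0 and 111 CPM in knockout cells with siFEM1B, 127, 113 and 118 CPM in knockout cells with siCTRL, 95.6, 81.1 and 70.7 CPM in control cells with siFEM1B and 115, 106 and 111 CPM in control cells with siCTRL. Libraries with siFEM1B lay below those with siCTRL in both lines. Fads2 fell with siFEM1B by 0.42 ± 0.08 in control cells (adjusted p = 0.000373), a call that held under all 19 alternatives. In knockout cells the fall was 0.22 ± 0.08 (adjusted p = 0.0368), and it was lost without knockout siCTRL replicate 1 (adjusted p = 0.152) or 3 (0.0728) and without knockout siFEM1B replicate 1 (0.0949) or 2 (0.126). Between lines it was higher in knockout cells under siFEM1B (0.31 ± 0.08, adjusted p = 0.00444; 0.19 and adjusted p = 0.0391 without control siFEM1B replicate 3), but -0.13 (adjusted p = 0.21) with chromosome medians removed. Under siCTRL the difference was 0.11 ± 0.08 (adjusted p = 0.298), called at 0.13 in a fit to the 6 libraries compared (adjusted p = 0.0453) and at -0.33 with chromosome medians removed (adjusted p = 0.00391).

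Scd1 (chr19:44394450-44407709) was at 657, 582 and 670.3 CPM in knockout cells with siFEM1B, 577.5, 566 and 586 CPM in knockout cells with siCTRL, 573, 516 and 450.4 CPM in control cells with siFEM1B and 480.5, 515 and 494 CPM in control cells with siCTRL. Knockout libraries lay above control libraries under each siRNA. Scd1 was higher in knockout cells by 0.31 ± 0.07 under siFEM1B (adjusted p = 0.000882) and 0.22 ± 0.07 under siCTRL (adjusted p = 0.0142), but with chromosome medians removed the differences were -0.13 (adjusted p = 0.151) and -0.22 (adjusted p = 0.0219). The call under siCTRL was lost without control siCTRL replicate 1 (0.19, adjusted p = 0.055). With siFEM1B it was not called in knockout cells (0.14 ± 0.07, adjusted p = 0.109) or control cells (0.05 ± 0.07, adjusted p = 0.606); in knockout cells it was called without low-count filtering (adjusted p = 0.0424) and without knockout siFEM1B replicate 2 (0.20, adjusted p = 0.0253). Reads of Scd1 may be shared with its close relative Scd2, so the counts of Scd1 are uncertain to that extent. Scd2 averaged 2987 and 2937 CPM in knockout cells with siFEM1B and siCTRL, and 2534 and 2055 CPM in control cells with siFEM1B and siCTRL. With siFEM1B Scd2 was called higher in control cells (0.30 ± 0.05, adjusted p = 0.000102) and not called in knockout cells (0.02 ± 0.05, adjusted p = 0.741).

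Agps (chr2:75832177-75931350) was called with siFEM1B in both lines and was called between lines under neither siRNA. Agps was at 106.5, 109.7 and 98.25 CPM in knockout cells with siFEM1B, 123, 116 and 116 CPM in knockout cells with siCTRL, 112, 113 and 102 CPM in control cells with siFEM1B and 116, 131.5 and 129 CPM in control cells with siCTRL. Libraries with siFEM1B lay below those with siCTRL within each line. It fell by 0.18 ± 0.06 in knockout cells (adjusted p = 0.0286) and by 0.21 ± 0.06 in control cells (adjusted p = 0.0104). The call in knockout cells was lost without knockout siCTRL replicate 1 (adjusted p = 0.117) and without knockout siFEM1B replicate 1 (0.0514) or 3 (0.141). The call in control cells was lost without control siCTRL replicate 2 (0.0573) or control siFEM1B replicate 3 (0.074). Between lines it was -0.08 ± 0.06 under siCTRL (adjusted p = 0.267), and 0.04 with chromosome medians removed.

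Fads1, Fads2 and Scd1 lie on chromosome 19, which as a whole was higher in knockout cells. The median log2 fold change of its 495 genes was 0.44 under both siRNAs. Elovl5 on chromosome 9 (744 genes) stood against a median of 0.29 under siFEM1B and 0.27 under siCTRL, and Mboat2 on chromosome 12 (460 genes) against -0.25 and -0.28. Agps on chromosome 2 stood against -0.12 and -0.13, and the chromosomes of Acsl3, Acsl4, Lpcat3 and Mboat1 had medians within 0.07 of 0. The medians of chromosomes varied with an SD of 0.164 and 0.169 in the comparisons between lines, but 0.0363 in knockout and 0.024 in control cells with siFEM1B. Relative to their chromosomes, Elovl5 was still higher in knockout cells, at 0.34 (adjusted p = 9.07e-06) under siFEM1B and 0.38 (adjusted p = 2.08e-06) under siCTRL. Acsl3 was too, at 0.52 and 0.51, and Acsl4 was lower, at -0.25 (adjusted p = 0.0104) and -0.30 (adjusted p = 0.00254). Fads1, Fads2 and Scd1 were not called higher relative to chromosome 19 in either comparison, and Fads2 and Scd1 were called lower relative to it under siCTRL. The calls with siFEM1B within each line, 5 in control and 4 in knockout cells, all held with chromosome medians removed. DNA copy number of the 2 lines was not tested.

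**Figure D4:**
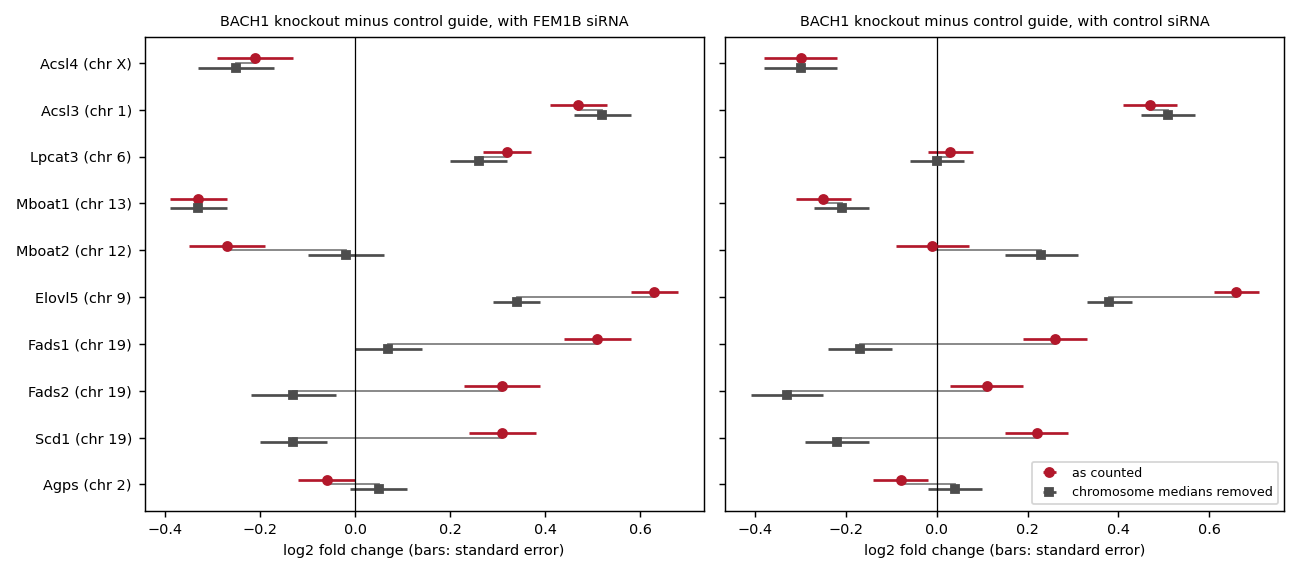
Log2 fold change in knockout minus control cells with its standard error, as counted and with the median of each chromosome removed, under siFEM1B on the left and siCTRL on the right. Acsl3, Mboat1 and Acsl4 keep their direction and calls, Elovl5 falls to 0.34 and 0.38, and Fads2 and Scd1 on chromosome 19 change sign to negative. Agps, not called, changes sign to positive under both siRNAs, and under siCTRL Fads1 also changes sign to negative and Mboat2 to positive.

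Ratios within a library show the balance of the mRNAs of paired enzymes free of library scaling. Acsl4 per Acsl3, by RPKM, was 1.38 ± 0.0848 in knockout cells with siFEM1B, 1.39 ± 0.0625 in knockout cells with siCTRL, 2.20 ± 0.254 in control cells with siFEM1B and 2.37 ± 0.201 in control cells with siCTRL (SD, n = 3 each). The highest of the 6 knockout libraries was 1.46 and the lowest of the 6 control libraries 2.03. Acsl4 mRNA was thus lower relative to Acsl3 mRNA in every knockout library. The ratio covers these mRNAs alone, and no protein or enzyme activity was measured here. Acsl6, given below, is not part of it. Lpcat3 per Mboat1 was 2.48 ± 0.188 and 2.38 ± 0.191 in knockout cells with siFEM1B and siCTRL, and 1.58 ± 0.026 and 1.96 ± 0.0228 in control cells with siFEM1B and siCTRL, again without overlap between lines. Fads1 per Fads2 was 2.69 ± 0.0849 in knockout and 2.34 ± 0.0765 in control cells with siFEM1B, without overlap, and 2.44 ± 0.155 in knockout and 2.19 ± 0.101 in control cells with siCTRL, with overlap. Mboat1 per Mboat2 overlapped between lines under each siRNA. These ratios combine values already tested gene by gene and carry no test of their own; with 3 libraries against 3 an exact permutation test could not go below p = 0.10.

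**Figure D5:**
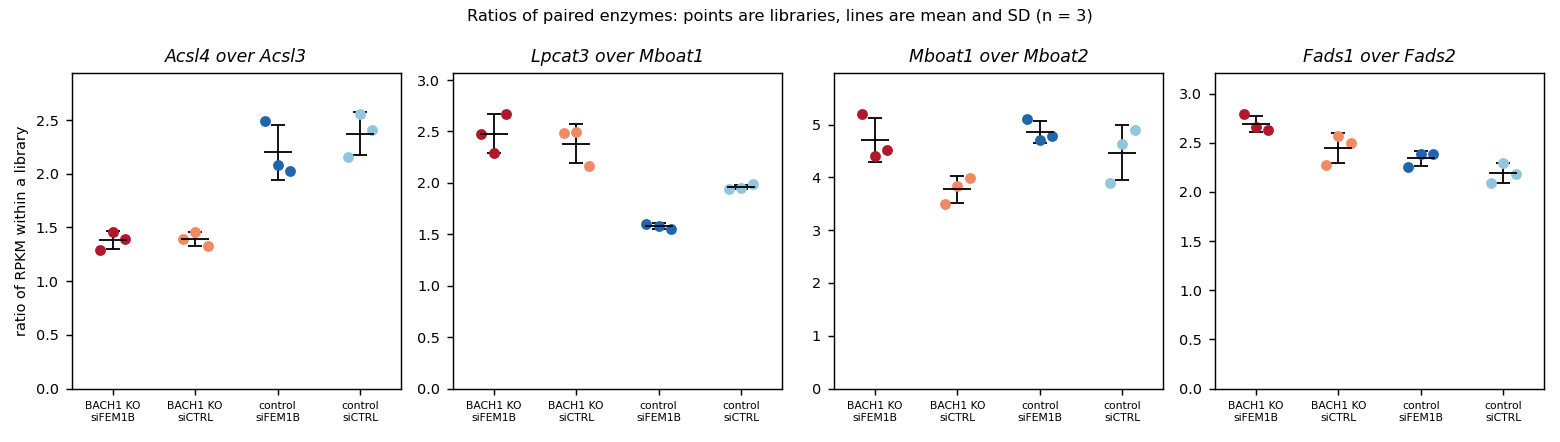
Ratio of RPKM of paired enzymes within each library, with group mean and SD (n = 3). Acsl4 over Acsl3 lies at 1.29 to 1.46 in the knockout libraries and 2.03 to 2.55 in the control libraries.

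Replicates agreed to within a few percent for most genes, with a median coefficient of variation over the 4 groups between 2.31% for Elovl5 and 7.42% for Mboat2. The highest values were in control cells with siFEM1B, with 14.9% for Acsl4, 15.2% for Fads2, 12.2% for Fads1 and 11.9% for Scd1, and Mboat2 reached 11.4% in knockout cells with siFEM1B. In control cells with siFEM1B, replicate 1 was highest and replicate 3 lowest for Acsl4, Fads2, Fads1 and Scd1. Across the 12 libraries Acsl3 and Elovl5 had a Pearson r of 0.95 on log2 CPM, Fads1 and Fads2 0.87, and Fads2 and Mboat1 -0.87. These are descriptions over 4 groups of shared libraries. The other genes whose levels were most like each member, by the highest r over the 12 libraries, were Pyroxd2 (0.993) for Acsl3, Mageh1 (0.996) for Elovl5, Tecpr1 (0.956) for Acsl4, Foxa1 (0.97) for Lpcat3, Rnf6 (0.984) for Mboat1, Arrb1 (0.932) for Mboat2, Rnf139 (0.978) for Fads1, Mettl8 (0.964) for Fads2, Rnf157 (0.962) for Scd1 and Epha4 (0.961) for Agps.

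The wider pathway was followed in 7 lists of related genes, which do not contain the 10. Among 8 measured acyl-CoA synthetases, 2 were called higher in knockout cells and 4 lower under siCTRL (median log2 fold change -0.16), and 3 higher and 3 lower under siFEM1B (0.05). Acsl6, a brain-enriched synthetase for polyunsaturated chains, had 390, 381 and 373 counts in knockout cells with siCTRL and 0 in the 3 control libraries with siCTRL, at least 397-fold higher against a floor of 3 counts over the group. With siFEM1B it had 496, 419 and 414 counts in knockout cells, against 0, 5 and 0 counts in control cells. Acsl1, a general long-chain synthetase, fell in all 4 comparisons. Its log2 fold change between lines was -0.55 ± 0.08 under siFEM1B (adjusted p = 5.45e-06) and -0.49 ± 0.07 under siCTRL (adjusted p = 1.68e-05), and with siFEM1B it was -0.43 ± 0.08 in knockout cells (adjusted p = 0.000168) and -0.37 ± 0.07 in control cells (adjusted p = 0.000442). With siFEM1B, 3 of the 8 rose and 1 fell in knockout cells, and 2 rose and 2 fell in control cells. Acsbg1, a synthetase of long and very long chains, went opposite ways in the lines: with siFEM1B it rose by 0.24 ± 0.05 in knockout cells (adjusted p = 0.00152) and fell by 0.26 ± 0.05 in control cells (adjusted p = 0.000635). Its group means were 154 ± 3.96 CPM in knockout cells with siFEM1B and 130.7 ± 1.05 CPM with siCTRL, and 138.4 ± 8.06 CPM in control cells with siFEM1B and 165.3 ± 7.09 CPM with siCTRL. Between lines under siCTRL its difference was -0.34 ± 0.05 (adjusted p = 2.76e-05), and -0.61 with chromosome medians removed.

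Of 13 measured elongases and desaturases other than the members, 6 were called higher in knockout cells and 1 lower under siCTRL (median 0.19) and 6 higher and 2 lower under siFEM1B (median 0.24). Elovl7, an elongase of long-chain acyl-CoA, showed the largest fall of the list, at 14.4 ± 1.89 CPM in knockout cells with siFEM1B against 42.2 ± 5.79 CPM in control cells with siFEM1B, and 6.555 ± 0.833 CPM in knockout cells with siCTRL against 28.35 ± 0.896 CPM in control cells with siCTRL. Its log2 fold change was -1.55 ± 0.11 under siFEM1B (adjusted p = 4.1e-10) and -2.11 ± 0.12 under siCTRL (adjusted p = 1.73e-11). Fads3, beside Fads1 and Fads2 on chromosome 19, fell with siFEM1B in control cells by 0.58 ± 0.06 (adjusted p = 1e-07), as both neighbours did. In knockout cells Fads3 fell by 0.26 ± 0.05 with siFEM1B (adjusted p = 0.000672). Fads3 and Scd2 were each higher in knockout cells under siCTRL by 0.52 ± 0.05 (adjusted p = 1.56e-07 and 9.16e-08), but by 0.08 each with chromosome medians removed (adjusted p = 0.236 and 0.245). Under siFEM1B Fads3 was higher in knockout cells by 0.83 ± 0.06 (adjusted p = 1.98e-10). It stayed at 0.39 or above in every alternative, removal of chromosome medians included. Scd2 was higher by 0.24 ± 0.05 under siFEM1B (adjusted p = 0.000767), but at -0.20 with chromosome medians removed (adjusted p = 0.00535). With siFEM1B, 5 of the 13 rose and 1 fell in knockout cells, and 4 rose and 3 fell in control cells.

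Of 13 other lysophospholipid acyltransferases and phospholipases, 1 was called higher and 5 lower in knockout cells under each siRNA, with medians of -0.14 under siFEM1B and -0.10 under siCTRL. Pla2g12a, a secreted phospholipase A2, fell by 0.85 ± 0.09 under siFEM1B (adjusted p = 1.12e-07) and fell by 0.67 ± 0.09 under siCTRL (adjusted p = 2.41e-06). With siFEM1B the calls were 4 higher and 2 lower in the knockout line, against 3 higher and 2 lower in the control line. Lpcat4, a lysophospholipid acyltransferase, rose by 0.59 ± 0.06 in knockout cells (adjusted p = 2.74e-07) and 0.47 ± 0.06 in control cells (adjusted p = 2.94e-06).

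In the ether lipid list, 13 genes beside Agps were measured. Under siFEM1B 5 were called higher in knockout cells and 1 lower (median 0.27), and under siCTRL 3 higher and 2 lower (median -0.01). Ept1, which forms ether-linked phosphatidylethanolamine, rose by 0.35 ± 0.05 under siFEM1B (adjusted p = 1.49e-05) and 0.45 ± 0.05 under siCTRL (adjusted p = 6.63e-07). With siFEM1B in control cells 1 was called higher and 5 lower (median -0.12), the 1 being Tmem189, the plasmalogen-forming desaturase, at 0.65 ± 0.09 (adjusted p = 8.43e-06). In knockout cells with siFEM1B 2 were called higher and 3 lower (median -0.05).

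Of 15 genes of lipogenic supply and its regulators, 4 were called higher in knockout cells and 4 lower under siFEM1B and 4 higher and 6 lower under siCTRL. With siFEM1B the knockout line had 6 called higher and 2 lower, and the control line 8 and 3. Mbtps2, the site-2 protease that releases SREBP transcription factors, fell by 0.79 ± 0.07 in knockout cells (adjusted p = 8.5e-08) and fell by 1.09 ± 0.07 in control cells (adjusted p = 7.46e-10); its group means were 31.9 CPM in knockout cells with siFEM1B and 55.1 CPM with siCTRL, and 32.9 CPM in control cells with siFEM1B and 70.1 CPM with siCTRL. Among 15 genes of lipid uptake, droplets and oxidation, 6 were called higher in knockout cells and 4 lower under siFEM1B and 3 higher and 5 lower under siCTRL, and with siFEM1B 7 higher and 3 lower in knockout cells and 3 higher and 5 lower in control cells. Acadl, which oxidises long-chain acyl-CoA, fell with siFEM1B by 0.42 ± 0.06 in knockout cells (adjusted p = 1.1e-05) and 0.64 ± 0.06 in control cells (adjusted p = 4.66e-08). In the list of genes tied to oxidation of membrane lipids, 6 were measured: Por, Cyb5r1, Cyb5r3, Cyb5a, Cyb5b and Alox12. Alox12, the only lipoxygenase of the list that passed the filter, had group means of 0.816 CPM or below. Under siCTRL 3 were called in knockout cells, Cyb5b, Por and Cyb5r3, all lower. Under siFEM1B 2 were higher, Cyb5r1 and Alox12, and 2 lower. Por, the cytochrome P450 reductase that feeds electrons to lipid peroxidation, fell by 0.31 ± 0.05 under siFEM1B (adjusted p = 8.97e-05) and 0.29 ± 0.05 under siCTRL (adjusted p = 2e-04). Cyb5r1 went the other way under siFEM1B, at 0.37 ± 0.07 (adjusted p = 0.000218), and was not called between lines under siCTRL. With siFEM1B, 2 of the 6 were higher and 1 lower in knockout cells and 1 higher and 1 lower in control cells. The lists were described by counts and medians only, beside 19.8% to 28.2% of all genes called in each direction, and no list was tested as a set.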

How the data were processed

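Whole-number counts per gene symbol were deposited by the authors as 1 table, not normalized. The submitters' processing notes name Subread, featureCounts 1.6.4, SAMtools 1.9, DESeq2 1.26.0 and mm10; annotation and strand setting were not given in the sources used here. Libraries were TruSeq stranded mRNA, per the labels' protocols, and reads shared between overlapping or near-identical genes can shift their counts. All 24421 symbols were used (6056 at 0 in every library) and filterByExpr (minimum count 10) kept 13281.

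In R 4.3.3, edgeR 4.0.16 with TMM factors (0.989 to 1.01) fitted 1 mean per group to the 12 libraries (8 residual degrees of freedom). All p-values are from its two-sided quasi-likelihood test, Benjamini-Hochberg adjusted over all genes kept, called under 0.05, with n = 3 a group, unless DESeq2 1.42.0 is named. The standard error is the absolute log2 fold change over the root of F. The design text calls replicates biological; no 2 held identical values, and their counts differed by a chi-square of 2.54 to 14.1 per degree of freedom. The counting floor covers counting error only. RPKM used GENCODE vM21 exon unions, not the RefSeq exons planned; positions and promoters are RefSeq's, GRCm38.p6, and 13229 genes had a chromosome (580 through a synonym). The script was tested on simulated data.

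Alternatives were RLE scaling, DESeq2, no filter, an average log2 CPM of at least 3, a replicate block, the 6 libraries compared, each library left out, and the median of each chromosome removed. The members and lists were chosen with earlier results of these data known. Beside the 10 members, the naming rule took up to 3 genes of smallest p per list and comparison, and 2 most alike per member; those printed were picked with values known, preferring calls that held. Markers and lists are general knowledge; Peds1 and Selenoi are newer names of Tmem189 and Ept1. Part of the cell line's genotype is not reported here.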

Additional observations from a re-analysis of the deposited data

Results flagged for a closer look

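Lpcat3 was the 1 gene of the 10 called by a test of the difference between the lines in the response to siFEM1B. Of all genes, 3.48% were called higher and 2.6% lower by this test. The log2 effect on Lpcat3 was 0.38 in BACH1 knockout cells and 0.10 in control cells, and the interaction was 0.28 ± 0.08 (edgeR, adjusted p = 0.0334, and 0.0192 to 0.117 over 18 alternatives). The call was lost with RLE scaling, the replicate block or chromosome medians removed, and in several of the fits without 1 library. All 3 knockout libraries with siFEM1B lay above all 3 knockout libraries with siCTRL, whereas 1 of the 3 control libraries with siFEM1B lay within the siCTRL range. The adjusted p lies close to the threshold, and the antisense neighbour Emg1, which shares 10.2% of the Lpcat3 exon bases, had an interaction of 0.22 ± 0.08 in the same direction (adjusted p = 0.0877); its part in the Lpcat3 result was not tested.

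Of the 83 genes tested in the 7 related lists, 11 had a called interaction, 8 higher and 3 lower (log2 -0.70 to 1.02), beside 3.48% of all genes called higher and 2.6% lower. The 3 given here were picked with values known. Acsbg1 had an interaction of 0.49 ± 0.08 (adjusted p = 0.00102; called under all 18 alternatives). For Fads3 it was 0.31 ± 0.08 (adjusted p = 0.0234), a call lost without any one of 6 libraries (adjusted p up to 0.082): control siCTRL replicate 3, control siFEM1B replicate 3, knockout siCTRL replicates 1 and 3, and knockout siFEM1B replicates 1 and 3. For Scd2 it was -0.28 ± 0.07 (adjusted p = 0.0316), lost with the replicate block (adjusted p = 0.0536) and without any one of 8 libraries (adjusted p up to 0.107): control siCTRL replicates 2 and 3, control siFEM1B replicates 1 and 2, knockout siCTRL replicates 1 and 3, and knockout siFEM1B replicates 1 and 3.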

How the results depend on the processing

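Removing chromosome medians mattered most between lines. Under siCTRL it reversed Fads1 (-0.17), Fads2 (-0.33), Scd1 (-0.22) and Mboat2 (0.23), and under siFEM1B Fads2 (-0.13), Scd1 (-0.13), Acsbg1 (-0.14) and Scd2 (-0.20). Under siFEM1B 5 of the 10 genes were then called in place of 9, against 6641 of all genes in place of 7246. Without single libraries, 2 to 4 genes were called with siFEM1B in knockout cells, 2 without knockout siCTRL replicate 1 or knockout siFEM1B replicate 1. The interaction was least stable: the 10 genes gave 0 calls with RLE scaling, the replicate block or chromosome medians removed (3 under each at an unadjusted p under 0.05), 1 with DESeq2, 2 with no filter, and 0 to 3 without single libraries. Over all genes it gave 807 calls (462 higher, 345 lower), 1393 with no filter, and 297 to 1859 without single libraries, the most without knockout siFEM1B replicate 2. Its split was 369 higher and 441 lower with RLE, 482 and 609 with DESeq2, 379 and 447 with chromosome medians removed, and 342 and 530 at an average log2 CPM of at least 3. Same-numbered libraries did not deviate together (r -0.115 to 0.0788, 18 pairs), and 1 of 12 libraries correlated best with its own number. No pairing by number was thus seen, which with 3 libraries a group does not exclude one. The replicate block gave 603 interaction calls, lost Lpcat3 (adjusted p = 0.0601) and changed no other call of the 10 genes. Low counts did not limit the 10 genes, whose smallest count was 821.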
